A study of Homo sapiens with 4 samples.

Results

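Receptor tyrosine kinases are membrane proteins that bind a growth factor outside the cell and phosphorylate tyrosines inside it. The phosphorylated tails recruit adaptor proteins, which start RAS-ERK and PI3K-AKT signalling, and phosphatases, ubiquitin ligases and endocytosis end the signal. Triple-negative breast cancer lines with a mesenchymal character are known for high EGFR and AXL and lack the amplified ERBB2 of the HER2-positive subtype. The 10 receptors described here, EGFR, ERBB2, ERBB3, AXL, TYRO3, MET, FGFR1, EPHA2, IGF1R and INSR, were chosen by name among the 48162 genes of the expression table, which lists 58 receptor tyrosine kinases in all.

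RNA was sequenced from MDA-MB-231 cells, an established human triple-negative breast cancer line, grown in DMEM with 10% serum. One group received MGH-CP1 for 24 h and the other received vehicle control (the DMSO columns of the table), with 2 libraries each. MGH-CP1 is a small molecule that occupies the lipid pocket of the TEAD transcription factors and blocks their palmitoylation. The sample labels give its dose as 10 µM, whereas the methods of the study give 10 mM. The comparison asks how each receptor transcript differed in level after this treatment. All 4 libraries come from a single cell line, and nothing in the sources used here says that the 2 libraries of a group came from separate cultures, so p-values measure only the spread between these libraries.

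Levels are FPKM, fragments scaled to gene length and to the total of fragments on genes, so that levels of different genes can be compared. The vehicle control libraries held 25455533 and 25508824 fragments and the MGH-CP1 libraries 17997221 and 17577930, and mitochondrial genes took 0.418 to 0.447% of fragments in the former and 1.53 to 1.57% in the latter. The part of the fragment numbers in the results was not tested. For the mitochondrial share, an alternative fit used library totals without mitochondrial genes. It moved the median log2 fold change of all genes tested from 0.014 to 0.028, and any other part of this share in the results was not tested. Of the markers of a mesenchymal or basal breast line, VIM, CD44, CAV1 and ZEB1 were present and SPARC lay under 1 FPKM, with a summed level of 870 to 888 FPKM in vehicle control and 768 to 772 with MGH-CP1. Mean levels in vehicle control and with MGH-CP1 were 387 and 275 FPKM for CAV1, 274 and 260 for VIM, 202 and 219 for CD44 and 16.2 and 15.4 for ZEB1. Of 6 luminal markers, 4 (ESR1, PGR, FOXA1 and CDH1) lay under 1 FPKM in every library, and the sum over the list was 17.9 to 21.2, mostly from EPCAM and GATA3. Immune and endothelial markers summed to at most 0.043 and 0.031 FPKM, and fibroblast markers to 1.59 to 2.02 FPKM, mostly from COL1A1.

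The promoter sequences of the receptors are shown first, since the treatment targets TEAD factors. RefSeq promoters (build GRCh38.p14) were given for 8 of the 10 receptors, with 11 start sites between them. The 250 bases before each start were searched on both strands for GGAATG, the core of the TEAD motif, whose reverse complement reads CATTCC. A match was found before 3 of the 11 start sites, in 3 genes, and before 4175 of 35116 start sites of all genes (11.9%). The FOXO motif TGTTTAC, also searched on both strands, had no match in the 11 windows and one in 2.98% of all windows. The 3 stretches with a match read as follows, 5′ to 3′ on the strand of the gene, with the motif in capitals.
AXL second start: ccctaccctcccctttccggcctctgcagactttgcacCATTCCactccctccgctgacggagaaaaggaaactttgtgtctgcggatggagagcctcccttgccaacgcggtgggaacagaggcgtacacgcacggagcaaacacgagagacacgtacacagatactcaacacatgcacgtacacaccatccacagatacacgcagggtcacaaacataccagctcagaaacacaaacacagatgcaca
EGFR second start: gacaaattctatCATTCCtttgggcctagg
EPHA2: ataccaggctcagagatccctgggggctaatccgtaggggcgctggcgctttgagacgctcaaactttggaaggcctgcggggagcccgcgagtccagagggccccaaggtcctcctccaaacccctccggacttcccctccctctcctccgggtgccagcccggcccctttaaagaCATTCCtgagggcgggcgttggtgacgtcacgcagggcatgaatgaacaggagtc

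The AXL stretch lies at chr19:41226505-41226754 on the plus strand, 7532 bases downstream of the first AXL start site, inside a longer AXL transcript but outside its exons. Its match begins 212 bases before the second start. The EGFR stretch lies at chr7:55109713-55109742 on the plus strand. Its start site is 90822 bases from the first EGFR start, and its match begins 114 bases before it, within an annotated untranslated exon of another transcript. The EPHA2 stretch lies at chr1:16156088-16156319 on the minus strand, upstream of annotated exons, and its match begins 73 bases before the start. AXL and EGFR were called lower with MGH-CP1 and EPHA2 was not called, as described next, and MET and TYRO3, which were also called lower, had no match in these windows. A match of 6 letters is a description of the sequence and says nothing about binding, and the table does not tell transcripts of a gene apart.

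Across the 10 receptors, all of which passed the filter of a mean of at least 1 FPKM, AXL, EGFR, MET and TYRO3 fell with MGH-CP1, ERBB3 rose, and ERBB2, EPHA2, FGFR1, INSR and IGF1R did not pass the test. A gene was called when limma's adjusted p, computed over all 12080 genes tested, was under 0.05. The 5 called receptors are 50.0% of the 10, beside 50.8% of all genes tested, so the share of receptors called was close to the background. By direction, 4 of the 10 were lower and 1 was higher, whereas 23.8% of all genes were called lower and 27.1% higher. The median log2 fold change was -0.07 over the 10 receptors and 0.01 over all genes tested. Both MGH-CP1 libraries lay below both vehicle control libraries for 5 receptors (37.4% of all genes) and above them for 3 (39.8% of all genes), so that 8 did not overlap, beside 77.2% of all genes. INSR and IGF1R were the receptors whose libraries overlapped. All log2 fold changes are MGH-CP1 minus vehicle control on the scale of log2(FPKM + 1), which understates the change of genes near 1 FPKM. In bulk RNA, fewer cells that express a gene and less RNA per cell cannot be told apart.

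**Figure D1:**
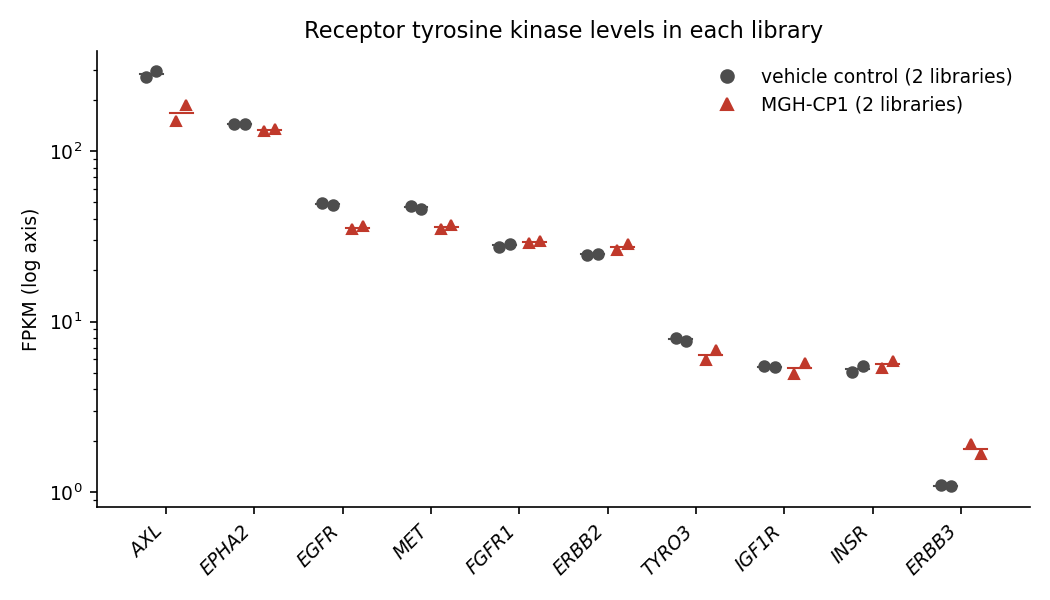
FPKM of each receptor (log axis) in the 2 vehicle control libraries (circles) and the 2 MGH-CP1 libraries (triangles), with the group mean as a line. AXL is the highest in every library and ERBB3 the lowest, and the groups stand furthest apart in proportion for these same receptors, AXL lower and ERBB3 higher with MGH-CP1.

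In vehicle control, the order of mean levels was AXL, EPHA2, EGFR, MET, FGFR1, ERBB2, TYRO3, IGF1R, INSR and ERBB3, from 283 down to 1.09 FPKM. Neighbours in this order did not overlap between libraries, except IGF1R and INSR. With MGH-CP1 the order was the same but for 2 exchanges, MET with EGFR and INSR with IGF1R, and in each of these pairs the library ranges overlapped. AXL stayed the most abundant of the receptors, and only 1.38% of all genes tested had a higher mean level over the 4 libraries.

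AXL and TYRO3 belong to the TAM family, whose ligands GAS6 and PROS1 bridge the receptors to phosphatidylserine on membranes. AXL (chromosome 19, 41725108 to 41767671 in the coordinates of the table, for which the processing notes name build hg19) was measured at 273.6 and 292.9 FPKM in vehicle control and at 149.2 and 187.0 FPKM with MGH-CP1. The 2 MGH-CP1 libraries differed from each other by more than the vehicle control libraries did, but both lay well below them. Means were 283 ± 13.7 FPKM and 168 ± 26.8 FPKM (SD, n = 2), a fall of 40.7% in mean FPKM. The log2 fold change of AXL was -0.76 ± 0.095 (SE, limma adjusted p = 0.000425), with a 95% interval from -0.98 to -0.54. Only 1.75% of all genes tested had a lower log2 fold change, and 12716 to 35393 fragments per library stood behind these values.

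TYRO3 (chromosome 15, 41849873 to 41871536), the TAM member better known from the nervous system, was far less abundant, at 7.998 and 7.733 FPKM in vehicle control and 5.98 and 6.79 FPKM with MGH-CP1. Its MGH-CP1 libraries lay below both controls, with a log2 fold change of -0.27 ± 0.080 (SE, limma adjusted p = 0.0247). The call of TYRO3 did not hold without vehicle control 1, where the log2 fold change was -0.24 (limma adjusted p = 0.0951), or without MGH-CP1 1, where it was -0.19 (limma adjusted p = 0.142). A TYRO3 pseudogene is listed at 0 in all libraries, and how reads shared with it were counted is not given in the sources used here. MERTK, the remaining TAM receptor, which clears apoptotic cells in macrophages, went in the opposite direction. It had 4.19 and 3.97 FPKM in vehicle control and 5.72 and 5.06 FPKM with MGH-CP1, a log2 fold change of 0.33 ± 0.088 (SE, limma adjusted p = 0.0149). That call was lost without vehicle control 2 (log2 fold change 0.30, limma adjusted p = 0.0600) and without MGH-CP1 1 (0.26, limma adjusted p = 0.0924). The ratio of AXL to MERTK in FPKM was 65.3 and 73.9 in vehicle control and 26.1 and 36.9 with MGH-CP1. All ratios between receptors given here were picked after the values were seen and carry no test.

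In the ErbB family the measured members did not move together. EGFR fell, ERBB2 was not called and ERBB3 rose, and the remaining member, ERBB4, had at most 3 fragments in any library. EGFR binds EGF, TGFA, amphiregulin and related factors, ERBB2 has no ligand of its own and serves as partner, and ERBB3 binds neuregulins, has a weak kinase and is known as a strong recruiter of PI3K.

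EGFR (chromosome 7, 55086714 to 55324313) was measured at 49.7 and 48.5 FPKM in vehicle control and 34.9 and 36.1 FPKM with MGH-CP1. Replicates differed little beside the distance between groups, with means of 49.1 ± 0.847 and 35.5 ± 0.855 FPKM (SD, n = 2). The log2 fold change of EGFR was -0.46 ± 0.050 (SE, limma adjusted p = 0.000219), with a 95% interval from -0.57 to -0.34, and 6167 to 12431 fragments lay behind each value.

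ERBB2 (chromosome 17, 37844167 to 37886679) had 24.7 and 24.9 FPKM in vehicle control and 26.3 and 28.4 FPKM with MGH-CP1. The MGH-CP1 libraries lay above the controls, but the log2 fold change of 0.13 ± 0.058 (SE) did not pass the test (limma adjusted p = 0.0852), and its 95% interval ran from 0.0011 to 0.27 before adjustment. MIEN1 and PGAP3 overlap ERBB2 on the opposite strand and had log2 fold changes of 0.35 and 0.37. MIEN1 had at most 13.2% and PGAP3 at most 9.91% of the fragments of ERBB2. Whether the counting used strand is not given in the sources used here, so their part in the ERBB2 value was not tested. The ratio of EGFR to ERBB2 was 2.01 and 1.95 in vehicle control and 1.33 and 1.27 with MGH-CP1.

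ERBB3 (chromosome 12, 56473641 to 56497289), the least abundant of the 10, had 1.10 and 1.08 FPKM in vehicle control and 1.92 and 1.66 FPKM with MGH-CP1. Both MGH-CP1 libraries lay above both controls, and mean FPKM was 64.5% higher. Its log2 fold change of 0.42 ± 0.12 (SE, limma adjusted p = 0.0191) rests on 163 to 205 fragments per library. The call was lost without vehicle control 1 (log2 fold change 0.42, limma adjusted p = 0.0709), without vehicle control 2 (0.41, limma adjusted p = 0.0744) and without MGH-CP1 1 (0.35, limma adjusted p = 0.0840). It was also lost with quantile normalization (0.26, limma adjusted p = 0.112). With a pseudocount of 0.1 the log2 fold change of ERBB3 was 0.67 and in voom it was 0.71, both called. The ratio of EGFR to ERBB3 went from 45.13 and 44.95 in vehicle control to 18.1 and 21.7 with MGH-CP1.

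MET (chromosome 7, 116312444 to 116438440), the receptor of hepatocyte growth factor and known for scattering and motility of epithelial cells, had 47.9 and 45.5 FPKM in vehicle control and 34.7 and 37.0 FPKM with MGH-CP1. The groups did not overlap, and the means were 46.7 ± 1.69 and 35.9 ± 1.63 FPKM (SD, n = 2). The log2 fold change of MET was -0.37 ± 0.056 (SE, limma adjusted p = 0.00101), with a 95% interval from -0.50 to -0.24. MST1R, the closest relative of MET and receptor of macrophage-stimulating protein, went the opposite way, from 5.18 and 5.42 FPKM to 11.2 and 11.0 FPKM. MST1R had a log2 fold change of 0.94 ± 0.069 (SE, limma adjusted p = 4.21e-05). The ratio of MET to MST1R accordingly was 9.25 and 8.40 in vehicle control and 3.09 and 3.37 with MGH-CP1.

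EPHA2 (chromosome 1, 16450832 to 16482582), a receptor for ephrin-A ligands on neighbouring cells, was the second most abundant receptor, with 143.4 and 144.5 FPKM in vehicle control and 131.8 and 135.1 FPKM with MGH-CP1. The MGH-CP1 libraries lay below the controls, but the log2 fold change of -0.11 ± 0.045 (SE) did not pass the test (limma adjusted p = 0.0753). EPHA2 was called with median-ratio scaling between libraries (log2 fold change -0.16, limma adjusted p = 0.0164), but not with quantile normalization (-0.11, limma adjusted p = 0.0657) or with library totals without mitochondrial genes (-0.09, limma adjusted p = 0.117). Voom on the recovered fragments called it at a log2 fold change of -0.11 (adjusted p = 0.0455). The ratio of AXL to EPHA2 was 1.91 and 2.03 in vehicle control and 1.13 and 1.38 with MGH-CP1.

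FGFR1, a receptor for fibroblast growth factors, had 27.4 and 28.6 FPKM in vehicle control and 28.7 and 29.7 FPKM with MGH-CP1. Its log2 fold change of 0.06 ± 0.054 (SE) was not called (limma adjusted p = 0.386), and its 95% interval ran from -0.06 to 0.18.

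INSR and IGF1R, the receptors of insulin and of insulin-like growth factors, can form hybrid receptors with each other and had nearly equal transcript levels. INSR (chromosome 19, 7112266 to 7294045) had 5.06 and 5.49 FPKM in vehicle control and 5.36 and 5.87 FPKM with MGH-CP1, a log2 fold change of 0.08 with a 95% interval from -0.12 to 0.27 (limma adjusted p = 0.478). IGF1R (chromosome 15, 99192200 to 99507759) had 5.46 and 5.42 FPKM and then 4.94 and 5.74 FPKM, a log2 fold change of -0.03 with a 95% interval from -0.23 to 0.18 (limma adjusted p = 0.823). The libraries of the 2 groups overlapped for both receptors. Neither sign was stable, since IGF1R turned to 0.07 without MGH-CP1 1 and INSR to -0.01 with quantile normalization, both without a call.

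**Figure D2:**
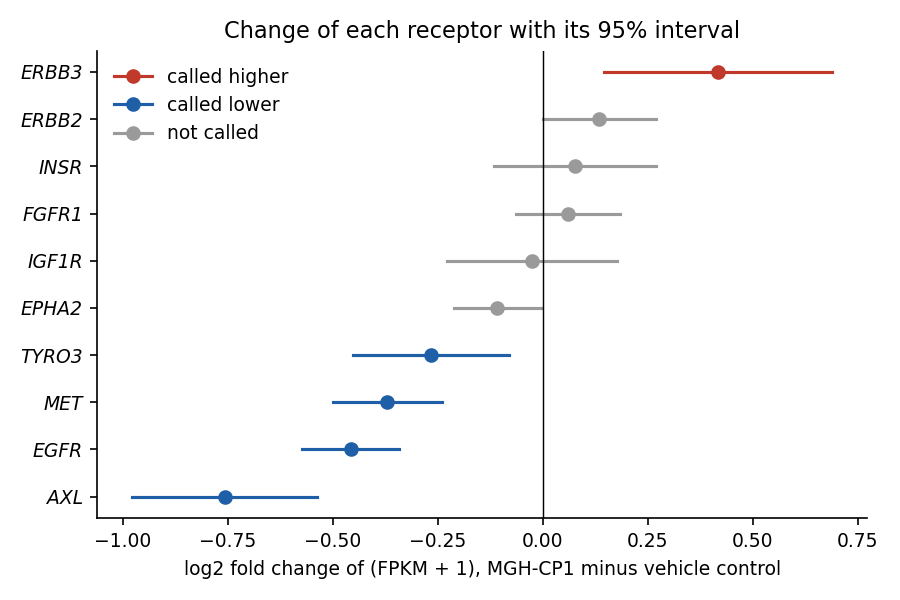
Log2 fold change of (FPKM + 1), MGH-CP1 minus vehicle control, of each receptor (point) with its 95% interval from limma before adjustment (line), coloured by call. The intervals of AXL, EGFR, MET and TYRO3 lie below 0 and that of ERBB3 above it, and ERBB2 and EPHA2, whose intervals end close to 0, were not called after adjustment.

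Outside the 10 receptors, 16 of 48 receptor tyrosine kinases reached a mean of 1 FPKM, and 7 of these 16 were called higher, 3 lower and 6 not at all. The share called was 62.5%, beside 50.8% of all genes tested (27.1% higher and 23.8% lower). The median log2 fold change of the 16 was 0.11. Over all 26 receptor tyrosine kinases tested, 8 rose, 7 fell and 11 were not called, with a median of 0.01. The other 32 did not reach the filter, and 5 of them (INSRR, FLT4, EPHA3, EPHA6 and EPHA8) are listed at 0 in all libraries. Since the filter takes the mean of all 4 libraries, LTK (means of 0.72 FPKM in vehicle control and 2.54 with MGH-CP1) reached it only through MGH-CP1. MUSK, named after its value was seen, had means of 1.09 and 0.77 FPKM and did not reach it. The counts of calls in each direction therefore depend in part on the filter.

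DDR1, a receptor for collagen, was the most abundant of those that rose, from 25.8 and 28.3 FPKM to 48.5 and 47.9 FPKM. Its log2 fold change was 0.81 ± 0.059 (SE, limma adjusted p = 3.98e-05). LTK, a relative of ALK, rose from 0.70 and 0.75 FPKM to 2.69 and 2.38 FPKM, with a log2 fold change of 1.04 from 61 to 167 fragments per library (1.68 with a pseudocount of 0.1 and 1.802 in voom). CSF1R, the receptor of macrophage colony-stimulating factor, rose from 1.27 and 1.24 to 2.83 and 2.80 FPKM, a log2 fold change of 0.76 (1.16 in voom). CTB-13H5.1 overlaps CSF1R on the opposite strand, with 21 to 30 fragments per library beside the 126 to 203 of CSF1R. The part of CTB-13H5.1 in the CSF1R value was not tested. LMTK3 (log2 fold change 0.60) and EPHA4 (0.48), an ephrin receptor, also rose from levels under 3 FPKM. EPHA4 lost its call without MGH-CP1 1 (0.37, limma adjusted p = 0.0525).

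Among the receptors that fell, EPHB2, a receptor for ephrin-B ligands, went from 27.8 and 27.5 FPKM to 20.1 and 22.5 FPKM, a log2 fold change of -0.37. ROR1, a Wnt receptor, went from 22.7 and 22.2 FPKM to 16.5 and 18.3 FPKM, a log2 fold change of -0.35. RYK, a Wnt receptor with an inactive kinase, had a log2 fold change of -0.20 (limma adjusted p = 0.0304) that was not called without any one of the 4 libraries (limma adjusted p from 0.0660 to 0.128). EPHB4, PTK7, LMTK2, PDGFRB, STYK1 and KDR were not called, with log2 fold changes from -0.24 for KDR to 0.18 for PDGFRB.

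**Figure D3:**
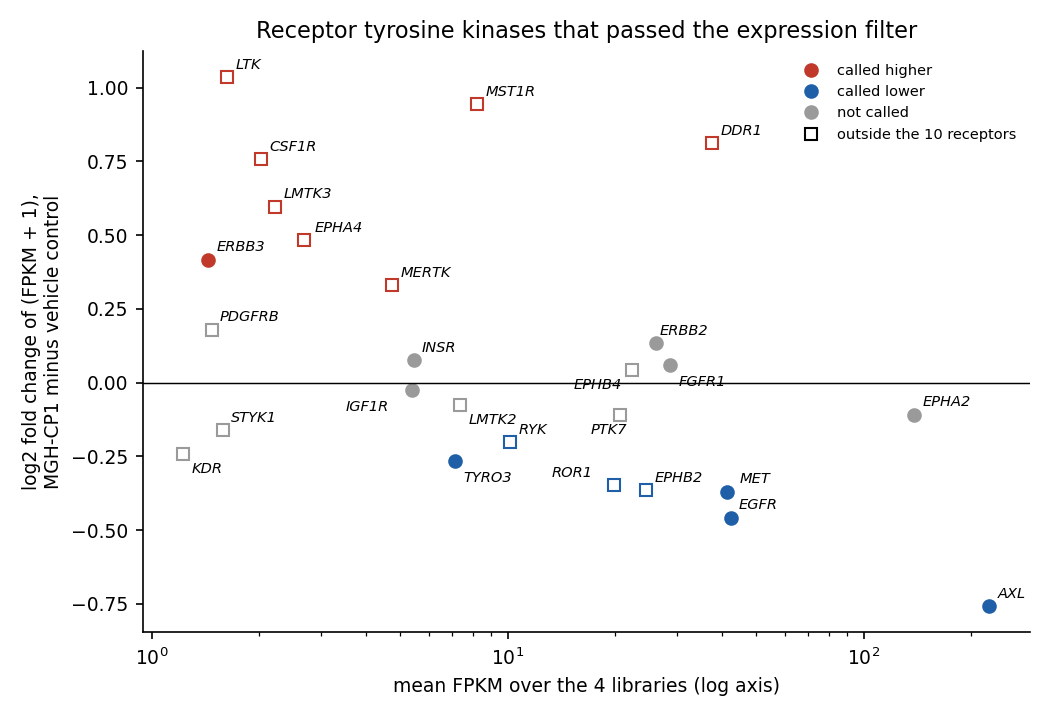
Log2 fold change of (FPKM + 1), MGH-CP1 minus vehicle control, against mean FPKM over the 4 libraries (log axis) for the 26 receptor tyrosine kinases tested. Filled circles are the 10 receptors, open squares the other 16, and colour gives the call. AXL lies at the lower right as the most abundant, and of the 8 called higher, LTK, CSF1R, LMTK3, EPHA4 and ERBB3 had mean levels under 3 FPKM and DDR1 was the most abundant.

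Summed over all 58 receptor tyrosine kinases, the transcript level was 748 and 769 FPKM in vehicle control and 605 and 657 FPKM with MGH-CP1. The MGH-CP1 libraries lay below the controls, with means of 759 ± 15.4 and 631 ± 36.9 FPKM (SD, n = 2). The 10 receptors made up 78.5% of this sum in vehicle control and 71.1% with MGH-CP1. AXL alone made up 36.6 and 38.1% in vehicle control and 24.7 and 28.5% with MGH-CP1. Without AXL, the sum over the remaining members of the 10 was 313 and 312 FPKM in vehicle control and 275 and 286 FPKM with MGH-CP1.

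The 48 receptors outside the 10 summed to 161 and 165 FPKM in vehicle control and 181 and 183 FPKM with MGH-CP1. Both MGH-CP1 libraries were higher, and the mean of this sum rose by 19.1 FPKM. DDR1 alone went from a mean of 27.0 to 48.2 FPKM, a larger rise, so the mean sum without DDR1 was not higher with MGH-CP1. EPHA2 took 19.0% of the whole sum in vehicle control and 21.2% with MGH-CP1 although its own level was not higher, since the sum was smaller. DDR1 went from 3.56 to 7.66% of the sum and ERBB2 from 3.27 to 4.34%. EGFR took 6.48 and 5.63%, and TYRO3 1.04 and 1.01%, with overlapping libraries for TYRO3. These shares were not tested.

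**Figure D4:**
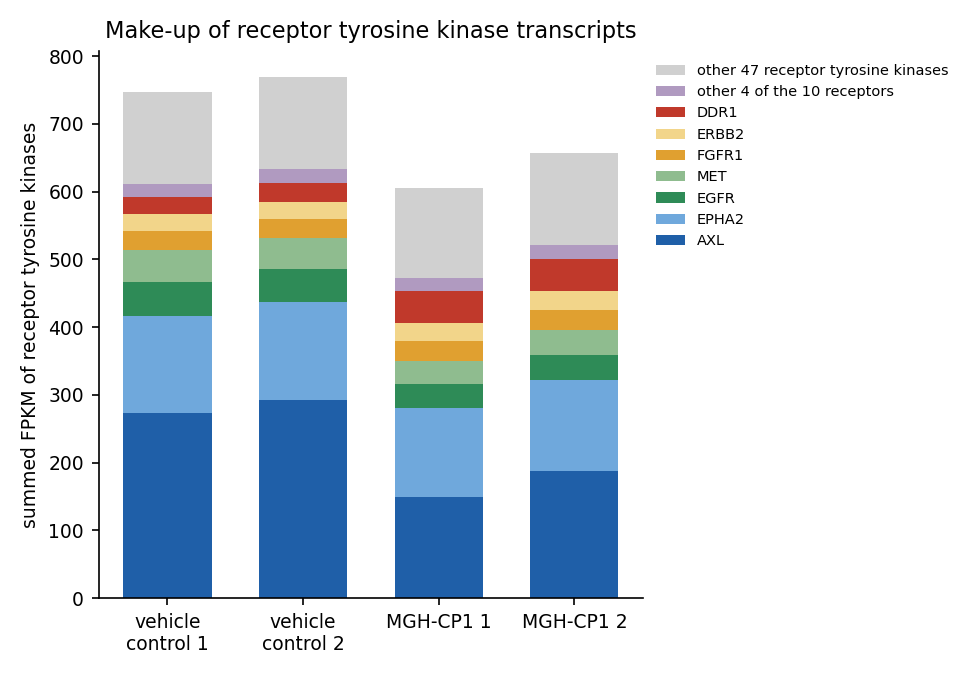
Summed FPKM of the 58 receptor tyrosine kinases in each library, stacked by receptor. The AXL segment is 273.6 and 292.9 FPKM in the vehicle control libraries and 149.2 and 187.0 FPKM in the MGH-CP1 libraries, while the DDR1 segment is taller with MGH-CP1.

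The ligands of these receptors were taken from lists of the ErbB, TAM, MET, insulin, FGF and ephrin families. Of 11 ErbB ligands, 6 reached the filter, and 3 of these rose, 2 fell and 1 was not called, with a median log2 fold change of 0.28. These 5 calls are 83.3% of the 6, beside 50.8% of all genes. AREG, amphiregulin, a low-affinity ligand of EGFR, had 12.01 and 14.95 FPKM in vehicle control and 34.7 and 33.2 FPKM with MGH-CP1. AREG had a log2 fold change of 1.28 ± 0.092 (SE, limma adjusted p = 3.98e-05). TGFA, a high-affinity EGFR ligand, rose from 30.2 and 32.9 to 41.6 and 41.3 FPKM, a log2 fold change of 0.38. EREG, epiregulin, had a log2 fold change of 0.23 (limma adjusted p = 0.0258), whose call was lost without any one of the libraries (limma adjusted p from 0.0578 to 0.110) and with median-ratio or quantile scaling.

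NRG1, the neuregulin that binds ERBB3, moved opposite to its receptor, from 19.1 and 16.5 FPKM to 12.4 and 12.4 FPKM, a log2 fold change of -0.48 ± 0.076 (SE, limma adjusted p = 0.00124). HBEGF, heparin-binding EGF, had a log2 fold change of -0.23 (limma adjusted p = 0.0135), which was not called without vehicle control 1 (-0.19, limma adjusted p = 0.0532) or MGH-CP1 1 (-0.17, limma adjusted p = 0.0945). BTC, named here after its value was seen, had 0.32 and was not called (limma adjusted p = 0.0806).

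GAS6, the AXL ligand, was abundant in the same cells, with 90.7 and 95.9 FPKM in vehicle control and 81.8 and 82.9 FPKM with MGH-CP1. It was called lower with a log2 fold change of -0.18 (limma adjusted p = 0.0171), but not without vehicle control 2 (-0.14, limma adjusted p = 0.0673), MGH-CP1 1 (-0.17, limma adjusted p = 0.0884) or MGH-CP1 2 (-0.19, limma adjusted p = 0.0604). AXL was lower relative to GAS6 too, at 3.02 and 3.05 times the FPKM of GAS6 in vehicle control and 1.82 and 2.26 times with MGH-CP1. PROS1, protein S, the other TAM ligand, rose from 6.76 and 6.07 to 8.92 and 8.58 FPKM, a log2 fold change of 0.40. The MET ligand HGF and insulin are listed at 0 in all libraries, and IGF1 and IGF2 had means under 0.1 FPKM.

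Of 18 FGF genes only FGF5 reached the filter, and it fell from 5.54 and 4.85 FPKM to 3.13 and 3.62 FPKM, a log2 fold change of -0.50 (limma adjusted p = 0.00377). Of 8 ephrins, 5 reached it, and 3 rose (60.0%, beside 27.1% of all genes called higher) and 2 (EFNA5 and EFNB1) were not called. EFNB2, a ligand of EPHB2 and EPHB4, was the most abundant, with 26.1 FPKM in both vehicle control libraries and 35.5 and 34.5 FPKM with MGH-CP1, a log2 fold change of 0.41. EFNA1, a ligand of EPHA2, rose from 1.26 and 2.04 to 3.72 and 3.01 FPKM, a log2 fold change of 0.73 from 62 to 129 fragments per library. The gene EFNA4 shares 5806 of its 5823 bases with EFNA3 on the same strand. EFNA3 had 14 to 20 fragments beside the 85 to 116 of EFNA4, and how shared reads were counted is not given in the sources used here. EFNA4 had a log2 fold change of 0.44, whose call was lost without vehicle control 2 (0.39, limma adjusted p = 0.0539) and without MGH-CP1 1 (0.27, limma adjusted p = 0.102).

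Of 17 adaptor genes tested, 4 rose, 1 fell and 12 were not called, so that 29.4% were called beside 50.8% of all genes, a difference that was not tested. PTPN11, the phosphatase SHP2, which carries the signal of many receptors to RAS, was the only adaptor that fell, from 79.8 and 77.4 FPKM to 50.8 and 52.7 FPKM. PTPN11 had a log2 fold change of -0.59 ± 0.049 (SE, limma adjusted p = 6.68e-05). RPL6, a ribosomal protein gene that overlaps it by 488 bases on the opposite strand, had 13596 to 24242 fragments beside the 5579 to 12393 of PTPN11 and a log2 fold change of -0.28, and its part in the PTPN11 value was not tested. GRB2, CRK, SOS1 and SOS2, named after their values were seen, had log2 fold changes from -0.09 for CRK to 0.08 for SOS2 and were not called.

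IRS1, the docking protein of INSR and IGF1R, rose from 28.8 and 30.9 to 35.8 and 36.5 FPKM, a log2 fold change of 0.27 (limma adjusted p = 0.00444). SHC1, SHC3 and FRS3, adaptors of ErbB, neuronal and FGF receptors, had log2 fold changes of 0.23, 0.28 and 0.38. Their calls were lost without MGH-CP1 2 for SHC1 (0.20, limma adjusted p = 0.0526), without vehicle control 2 (0.22, limma adjusted p = 0.0738) or MGH-CP1 2 (0.25, limma adjusted p = 0.0747) for SHC3, and without MGH-CP1 1 for FRS3 (0.30, limma adjusted p = 0.0670). FRS3 overlaps PRICKLE4 on the opposite strand, which had more fragments (349 to 565, beside 247 to 299) and a log2 fold change of 0.86. SHC1 and SHC3 overlap PYGO2 (log2 fold change 0.16) and RP11-82L18.2 (0.83) on their own strand. The part of these genes in the adaptor values was not tested.

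Among 18 negative regulators tested, 2 rose, 6 fell and 10 were not called, so that 44.4% were called beside 50.8% of all genes (27.1% higher and 23.8% lower). ERRFI1, also known as MIG6, an inhibitor that binds the kinase domain of EGFR, was the most abundant of them and rose from 177.3 and 175.5 FPKM to 246.9 and 243.3 FPKM. Its log2 fold change was 0.47 ± 0.044 (SE, limma adjusted p = 0.000109), and the ratio of ERRFI1 to EGFR in FPKM was 3.57 and 3.62 in vehicle control and 7.08 and 6.74 with MGH-CP1. PTPRJ, a receptor phosphatase that acts on several of these kinases, rose from 62.9 and 60.5 to 81.2 and 81.6 FPKM, a log2 fold change of 0.39.

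Of the other phosphatases in the list, PTPRF, PTPN2, PTPN1 and PTPRK fell and PTPN12, named after its value was seen, was not called (log2 fold change -0.04, limma adjusted p = 0.528). PTPRF (also called LAR) went from 99.9 and 101.7 FPKM to 69.3 and 78.2 FPKM, with a log2 fold change of -0.45, and PTPN2 from 14.5 and 13.7 to 10.2 and 9.05 FPKM, with -0.51. CBL, the ubiquitin ligase that marks EGFR and MET for degradation, fell from 15.8 and 16.5 to 12.43 and 13.04 FPKM, a log2 fold change of -0.32 (limma adjusted p = 0.00341). CD2AP, a CBL partner, had -0.23, a call lost without vehicle control 1 (-0.15, limma adjusted p = 0.0812), MGH-CP1 1 (-0.21, limma adjusted p = 0.0805) or MGH-CP1 2 (-0.24, limma adjusted p = 0.0512). PTPN1 and PTPRK, named after their values were seen, were called lower with log2 fold changes of -0.18 each. Limma adjusted p was 0.0187 for PTPN1 and 0.0382 for PTPRK, and calls with a library left out are not given for them.

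Of 18 genes of receptor and ligand shedding, endocytosis and degradation, all tested, 6 rose, 0 fell and 12 were not called. That is 33.3% called, beside 50.8% of all genes called in either direction and 27.1% called higher. RHBDF1, an inactive rhomboid that is known to carry the sheddase ADAM17 to the cell surface, was the clearest, from 11.6 and 10.6 FPKM to 27.1 and 23.3 FPKM. RHBDF1 had a log2 fold change of 1.11 ± 0.082 (SE, limma adjusted p = 4.33e-05). Its paralogue RHBDF2 rose from 16.97 and 17.79 to 22.7 and 23.7 FPKM, a log2 fold change of 0.40. ADAM17 itself, which releases AREG and TGFA from the membrane, and RAB11A, a recycling GTPase, were called higher with smaller log2 fold changes of 0.19 and 0.16. Limma adjusted p was 0.0331 for ADAM17 and 0.0386 for RAB11A, and calls with a library left out are not given for these genes. Both were named after their values were seen, and ADAM17 overlaps IAH1 (log2 fold change 0.17) and RAB11A overlaps DENND4A (-0.14) on the opposite strand.

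The endocytic adaptor EPN2 had a log2 fold change of 0.28, not called without MGH-CP1 1 (0.23, limma adjusted p = 0.0838). HGS, which sorts ubiquitinated receptors to lysosomes, had 0.22, not called without vehicle control 1 (0.14, limma adjusted p = 0.0792), MGH-CP1 1 (0.20, limma adjusted p = 0.0921) or MGH-CP1 2 (0.24, limma adjusted p = 0.0512). ARL16 (log2 fold change 0.08) overlaps HGS on the opposite strand, with 334 to 462 fragments beside the 3256 to 4334 of HGS. The part of ARL16 in the HGS value was not tested. The most abundant gene of the list, EPN1, had 115 and 123 FPKM in vehicle control and 119 and 125 FPKM with MGH-CP1 and was not called. The clathrin chains CLTA, CLTB and CLTC, named after their values were seen, were not called either, with log2 fold changes from -0.14 to -0.09.

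**Figure D5:**
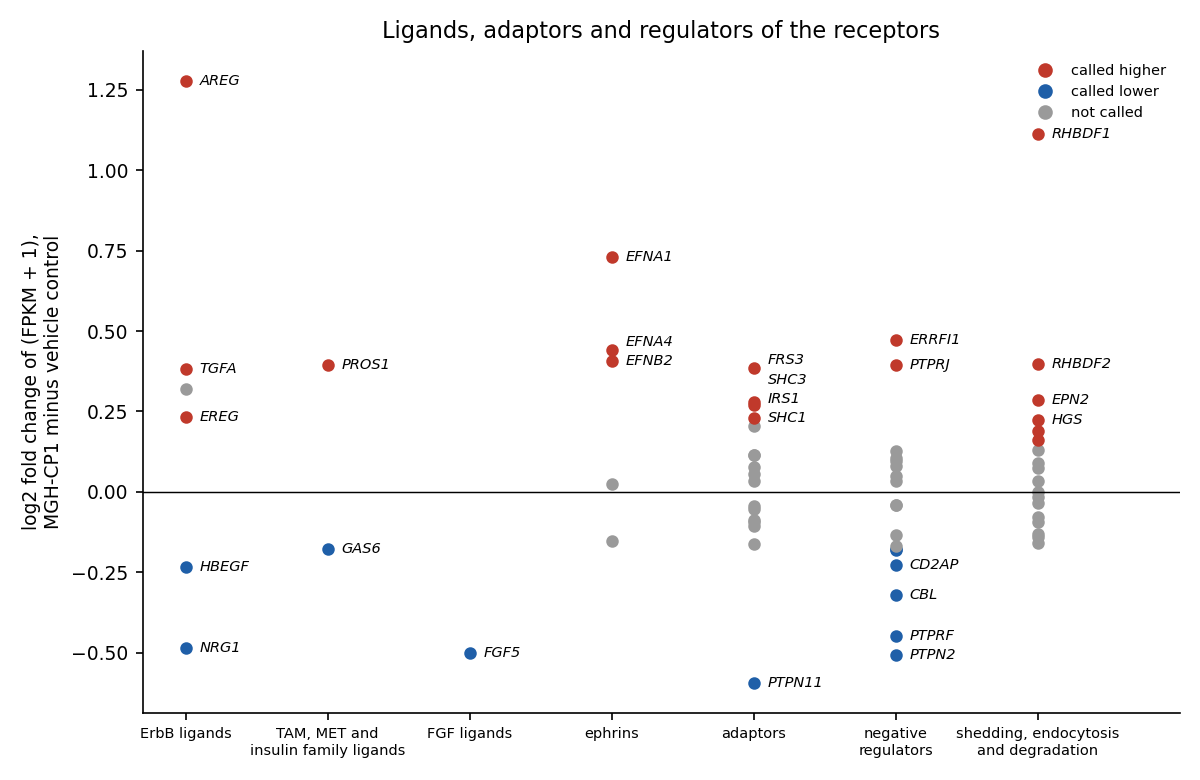
Log2 fold change of (FPKM + 1), MGH-CP1 minus vehicle control, of every tested gene (point) of the 7 lists of ligands, adaptors and regulators, coloured by call, with names for the genes chosen by rule. AREG at 1.28 and RHBDF1 at 1.11 are the highest points and PTPN11 at -0.59 the lowest.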

How the data were processed

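The libraries, 2 of MGH-CP1 and 2 of vehicle control, were made from MDA-MB-231 cells after 24 h. Poly-T selected mRNA was sequenced by Novogene as paired-end reads, and the processing notes of the labels name CASAVA 1.8, STAR and hg19. The counting tool, annotation and strand setting are not given in the sources used here. The authors deposited FPKM for 48162 genes, scaled to the fragments on the listed genes. Fragments were recovered from FPKM multiplied by gene length, which gave whole numbers for 100% of values (tolerance 0.01). The column names say DMSO where the sample titles say control, and were matched by condition and replicate number.

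Groups were compared on log2(FPKM + 1) for 12080 genes whose mean over the libraries reached 1 FPKM, with limma 3.58.1 in R 4.3.3 (eBayes with trend, two-sided, Benjamini-Hochberg over all genes tested, threshold 0.05). On simulated data with 11828 genes tested, the script called 85 of 96 genes changed by 1.5-fold and 94 of 97 changed by 2-fold. It also called 24 unchanged genes. The spread between simulated libraries was set to a fixed value rather than taken from these data, so the error rate of the real calls is not known. The methods of the study use a per-gene Student test, which 2 libraries per group can hardly carry, so it was kept as an alternative. An exact permutation test of 2 against 2 libraries cannot go below p = 0.333. Alternatives were quantile normalization, median-ratio scaling, a pseudocount of 0.1, a filter at 5 FPKM or none, a replicate block, limma without trend, no shared variance, voom on recovered fragments, each library left out and, chosen after seeing the data, library totals without mitochondrial genes.

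The 10 receptors and all lists were chosen with earlier results of these data known. Named genes are the receptors, every other called receptor tyrosine kinase with non-overlapping libraries, and in each list up to 4 such genes per direction and the most abundant gene. Others are said to be named after their values were seen.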

Additional observations from a re-analysis of the deposited data

How the results depend on the processing

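AXL, EGFR and MET kept their direction and their call under every alternative except the per-gene test without shared variance. There, the Benjamini-Hochberg adjusted p of the ordinary t test was 0.118 for AXL (log2 fold change -0.76), 0.0626 for EGFR (-0.46) and 0.0877 for MET (-0.37). That setting called 9 genes higher and 4 lower in all, although 4947 genes, 5 of the 10 receptors among them, had an unadjusted p under 0.05, and it called 0 receptors in either direction, leaving ERBB3 (0.42, adjusted p = 0.0903) and TYRO3 (-0.27, adjusted p = 0.163) without a call. With no filter on low values, 24878 genes were tested, 2280 were called higher and 1844 lower, and ERBB3 (0.42, adjusted p = 0.0760) and TYRO3 (-0.27, adjusted p = 0.103) lost their calls, so that 0 receptors were higher. At a mean FPKM of at least 5 ERBB3 was not tested, and again 0 were higher. Quantile normalization also left 0 higher, since ERBB3 stood at 0.26 (adjusted p = 0.112), and it turned INSR to -0.010. Median-ratio scaling called EPHA2 lower (-0.16, adjusted p = 0.0164) and turned EPN1 to -0.019. It called 2815 genes higher and 3481 lower, against 3273 and 2869. Voom called EPHA2 lower (-0.11, adjusted p = 0.0455) and ERBB2 higher (0.14, adjusted p = 0.0427), giving 2 receptors higher. A pseudocount of 0.1 and voom raised the log2 fold changes of the low genes ERBB3 (0.67 and 0.71) and LTK (1.68 and 1.802), and voom that of CSF1R (1.16). Leaving out 1 library at a time gave 0 to 1 receptors called higher and 3 to 4 lower, with log2 fold changes from 0.35 to 0.48 for ERBB3, -0.34 to -0.19 for TYRO3 and -0.12 to 0.065 for IGF1R (0.065 without MGH-CP1 1), and -0.013 (without vehicle control 1) to 0.083 for EPN1, which also turned to -0.0011 without MGH-CP1 2. The replicate block called 3466 genes higher and 3052 lower and 1 and 4 of the receptors, as without it. Same-numbered libraries shared only a number (correlation of their deviations 0.0777 over 2 pairs), so no pairing was assumed. The summed FPKM of the receptor tyrosine kinases moved by less than 1 SD under the other scalings. Over the other 37 named genes, 422 values kept their direction and call, 85 lost the call in the same direction and 3, all of EPN1, changed sign. The cause of these changes was not tested, other than the number of genes or libraries that a setting itself leaves. Precision is limited by 2 libraries per group, and for genes such as ERBB3 and LTK by low fragment numbers. Among the other such genes were CSF1R (126 to 203 fragments per library), EFNA1 (62 to 129) and EFNA4 (85 to 116).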
